A study of Danio rerio with 6 samples.

Results

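The genes described here are the cytokines, chemokines and receptors of the larval zebrafish gut, 1 day after the gut was cut through. They were chosen by a rule on gene names, set with earlier results of these data known. It took symbols of chemokines (ccl, cxcl), chemokine receptors (ccr, cxcr, ackr), interleukins and their receptors (il followed by a digit), and the TNF ligand and receptor superfamilies. It also took colony-stimulating factors, and interferons with the class II cytokine receptors (ifng, ifnphi, crfb). The genes il1b, il22, il26, csf1ra, csf1rb, csf3r and cxcr1 were left out by the rule. This gave 128 of the 15419 genes in the table: 35 chemokines, 12 chemokine receptors, 17 interleukins, 25 interleukin receptors, 11 TNF ligands, 8 TNF receptors, 5 colony-stimulating factors or their receptors, and 15 interferons or class II receptors.

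Cytokines are secreted proteins that carry signals between cells, and chemokines are the subset that steers migrating cells along a gradient. In a wounded gut, epithelial and resident immune cells release chemokines of the CXCL8 type that attract neutrophils, while tumour necrosis factor, interleukin-6 and interleukin-17 family members act on the epithelium and on leukocytes. Receptors of these ligands signal through JAK-STAT proteins, NF-kB or, for chemokines, G proteins, and some receptors act as decoys that remove the ligand.

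The study sequenced bulk RNA from dissected guts of wild-type (WT) larvae of Danio rerio, described as 5 days post-fertilization without saying whether that is the age at the cut or at dissection. In the transected group (labelled cut_wt) the gut had been severed 24 h earlier, and the control group (labelled wt) carries no mention of a cut or of a sham operation. Each group has 3 libraries, and each library pooled 10 to 15 guts, so that the spread between libraries is a spread between pools of animals. The labels name no transgene, drug or mutant allele.

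Each library held 21525093 to 25131242 counts. Values are given as raw counts or as CPM, which are counts brought to a common depth with library sizes scaled by TMM (the trimmed mean of M-values, a correction for differences in composition). A single count was worth 0.0384 to 0.0465 CPM. On the first principal component, which held 47.0% of the variance, the replicate 1 libraries of both groups lay at -33.1 (transected) and -44.3 (control), apart from the other libraries at 0.00370 to 48.5. Of 16 gut epithelium markers none was at 0 in all libraries, although the enterocyte gene fabp2 had 3 to 11 counts per library. Their summed level was 30850 to 35900 CPM in transected guts and 36150 to 39730 CPM in control guts, so every transected sum was below every control sum. Of the 16, 0 had all transected libraries above all controls and 3 below, against 7.48% and 6.38% of all genes tested. The epidermal and skeletal muscle markers, which stand for tissue outside the gut, summed to 3005 to 5045 and 2761 to 6102 CPM in transected guts, against 2238 to 3408 and 851 to 8454 CPM in control guts.

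Many of these genes had few or no counts. Of the 128 genes, 87 had at least 1 count in all 6 libraries, 21 in 1 to 5 libraries, and 20 were listed at 0 throughout, a share of 15.6% against 10.7% of all genes. A gene at 0 could hold up to 0.115 to 0.139 CPM in a library (3 counts, counting error only). That limit holds only if reads of the gene were assigned to it. The counter and the annotation are not known here, so a gene listed at 0 is not shown to be unexpressed. Between 94 and 102 of the genes were detected per library. Interleukins were detected less completely, with 8 of 17 found in all 6 libraries, than interleukin receptors, with 21 of 25, but this difference was not tested. Among the genes listed at 0 were il4, the receptor gene il11ra, the CXCL12 scavenger gene ackr3a, and crfb1 and crfb2, which encode type I interferon receptor chains in zebrafish.

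Setting transected beside control guts addresses which of these signals differ 1 day after the cut. The 73 genes that passed a filter on low counts were tested in 1 model over all 11466 genes that passed it, with p-values adjusted over all of them. None of the 73 passed an adjusted p of 0.05 in edgeR, where 2 genes of all tested did (0.0174% higher and 0.0% lower in transected guts, 0.0174% in either direction). Before adjustment, 8 of the 73 had a p under 0.05 and were higher and 1 was lower in transected guts, against 4.32% and 3.55% of all genes (7.87% in either direction). DESeq2, a second count model, called 2 of the 73 higher and 0 lower, against 0.846% and 0.584% of all genes (1.43% in either direction). Both were chemokines of the cxcl18 group, and 1 of them, cxcl18a.1, met the filter's count in 3 transected and 0 control libraries. All 3 transected libraries lay above all 3 controls for 12 of the 73 genes and below for 3, against 7.48% and 6.38% of all genes tested (13.9% in either direction).

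Of the 73 log2 fold changes 52 were positive (71.2%, against 50.5% of all genes), and their median was 0.25 against 0.0026. These figures describe the genes that passed the filter, and 7 of them passed with all 3 transected but fewer than 3 control libraries over the filter's count, 2 the other way round. The median level of the 73 genes in a library, on the log2 scale relative to each gene's mean, was 0.12, 0.091 and 0.089 across the transected libraries, against 0.0022, -0.14 and -0.19 across the controls, by replicate number. The transected libraries were thus the higher ones, with control replicate 1 closest to them. With replicate numbers used as pairs, 13 of the 73 genes were higher and 1 was lower before adjustment, against 6.99% and 6.11% of all genes (13.1% in either direction). After adjustment 0 of the 73 passed in this paired edgeR fit, against 0.0262% of all genes higher and 0.00872% lower (0.0349% in either direction), and the paired DESeq2 fit called the same 2 cxcl18 genes, against 1.43% higher and 1.08% lower (2.51% in either direction). Without both replicate 1 libraries edgeR called 0 of these genes, against 0.866% higher and 1.5% lower (2.37% in either direction).

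The chemokines cxcl18b and cxcl18a.1 were the 2 genes that DESeq2 called higher in transected guts. cxcl18b, a chemokine that recruits zebrafish neutrophils, was at 5.84, 6.41 and 5.6 CPM in transected guts, against 2.59, 2.93 and 1.81 CPM in control guts. Its mean was 5.95 ± 0.412 CPM in transected guts and 2.44 ± 0.573 CPM in control guts (SD, n = 3 libraries each), the groups did not overlap, and the transected libraries were within a narrow band. The log2 fold change was 1.28 (SE 0.22), with an adjusted p of 0.271 in edgeR and 0.000839 in DESeq2. Over the 14 alternative settings its log2 fold change ranged from 1.11 to 1.43 and its adjusted p from 0.000839 to 0.969, and the 2 DESeq2 fits were the ones that called it.

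cxcl18a.1, a chemokine of the same group, was at 0.922, 2.12 and 1.64 CPM in transected guts, against 0.283, 0.372 and 0.0905 CPM in control guts. It had 24, 47 and 38 counts in transected guts, against 7, 8 and 2 counts in control guts, with the lowest transected library well above the highest control. Its log2 fold change was the largest of the 73, 2.62 (SE 0.55), with an adjusted p of 0.364 in edgeR and 0.0111 in DESeq2. It was the 1 gene of the 73 that met the filter in all transected and in 0 control libraries, and over 13 alternatives its adjusted p ranged from 0.0111 to 0.994.

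The CXCL8 genes in the table, cxcl8b.1 and cxcl8b.3, also had every transected library above every control, without passing the adjusted threshold. CXCL8 proteins draw neutrophils through the receptor CXCR2, and the table held neither cxcl8a nor cxcr2. cxcl8b.1 was at 11.5, 9.47 and 9.31 CPM in transected guts, against 2.06, 6.65 and 5.21 CPM in control guts. Its groups did not overlap, and control replicate 1 was the lowest library by a wide margin (log2 fold change 1.12, SE 0.40, adjusted p = 0.568). Without both replicate 1 libraries the log2 fold change was 0.66 (adjusted p = 0.115). cxcl8b.3, which lies next to cxcl8b.1 in the RefSeq annotation, was at 4.15, 5.01 and 6.08 CPM in transected guts, against 1.74, 3.49 and 3.94 CPM in control guts. The gap between its groups was smaller (log2 fold change 0.73, SE 0.34, adjusted p = 0.669), and how reads shared by such neighbouring copies were counted is not known here, so values of the single copies are uncertain. cxcl19, on the other side of cxcl8b.3, was at 4.84, 1.35 and 2.24 CPM in transected guts, against 2.1, 1.35 and 1.27 CPM in control guts, and transected replicate 1 was its highest library by a wide margin, with overlap between the groups (log2 fold change 0.84, SE 0.50, adjusted p = 0.765).

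Of 17 neutrophil markers in the table, 15 were tested, with a median log2 fold change of 0.92. Of the 17, 7 had all transected libraries above all controls and 0 the reverse. Over all genes the shares were 7.48% and 6.38% of those tested, and 2.68% and 2.43% of those below the filter. The summed level of the 17 was 7592 to 17010 CPM in transected guts and 3466 to 15180 CPM in control guts, so the sums overlapped. The marker at 0 throughout was nccrp1. The markers mpx and lyz were at most 249 and 12.6 CPM in any library, so the sums rest mostly on other genes of the list. Relative to each gene's mean, the median log2 level of the markers tested was 0.17, 0.46 and 0.85 across the transected libraries. Across the controls it was -0.11, -0.60 and -0.78. mpx, the myeloperoxidase gene that defines zebrafish neutrophils, had 472, 5520 and 3309 counts in transected guts, against 542, 55 and 66 counts in control guts. Control replicate 1 thus carried more mpx than transected replicate 1, but the markers as a list went the other way in this pair. Their median was -0.11 in control replicate 1 and 0.17 in transected replicate 1, and their sums were 3466 and 7592 CPM. The level of cxcl8b.1 was lowest in control replicate 1. The part of the neutrophil markers in the chemokine values was not tested, and in bulk RNA more cells of a type and more RNA per cell cannot be told apart.

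**Figure D1:**
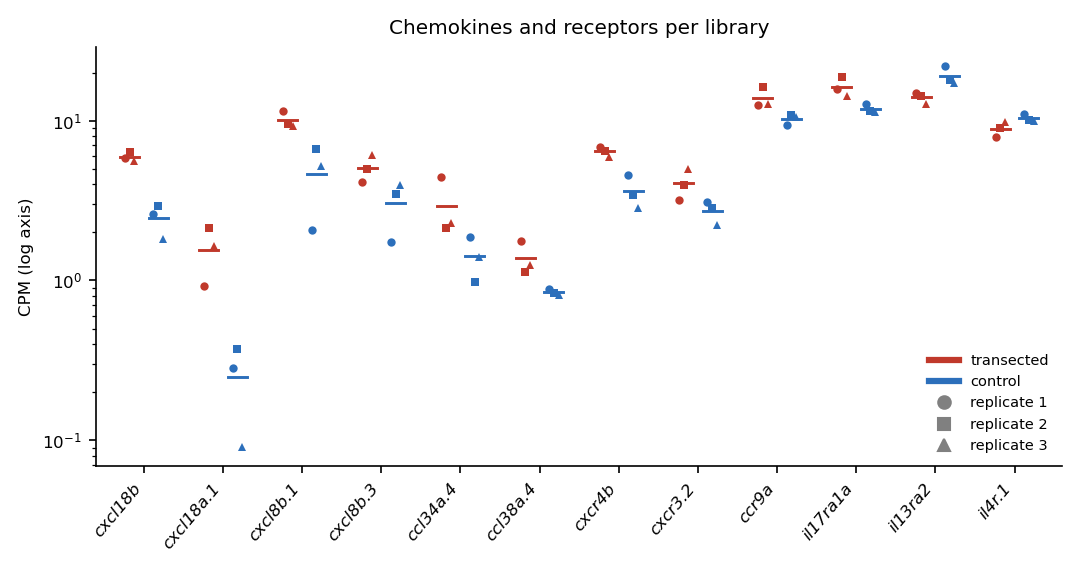
CPM per library on a log axis for 12 chemokine and receptor genes, transected (red, left) and control (blue, right), with 1 symbol per replicate number and a bar at the group mean. In the first 10 genes every transected library lies above every control library, with cxcl18a.1 the widest apart (0.922 to 2.12 CPM in transected guts, 0.0905 to 0.372 CPM in control guts), and in il13ra2 and il4r.1 the order is the reverse.

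CC chemokines were split between genes whose groups separated and genes whose groups overlapped. ccl34a.4, a CC chemokine of a fish-specific group, was at 4.42, 2.12 and 2.28 CPM in transected guts, against 1.86, 0.976 and 1.4 CPM in control guts, without overlap (log2 fold change 1.05, SE 0.40, adjusted p = 0.574). Its direct neighbour in RefSeq, ccl34a.3, had 20, 5 and 9 counts in transected guts, against 3, 1 and 4 counts in control guts and stayed below the filter. Transected libraries were above controls in both copies, with transected replicate 1 the highest library in each, and the summed counts of ccl34a.3 gave a ratio of 4.07 (95% interval 1.85 to 10.2), an interval that covers counting error only. ccl38a.4 was at 1.77, 1.13 and 1.25 CPM in transected guts, against 0.89, 0.837 and 0.815 CPM in control guts (log2 fold change 0.70, SE 0.29, adjusted p = 0.633). Its groups were close to each other but did not overlap, and its neighbours ccl38a.5 and ccl38.6 did overlap, with log2 fold changes of 0.50 (SE 0.54) and 0.077 (SE 0.30).

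Homeostatic chemokines overlapped between the groups. ccl19b, whose mammalian relative guides dendritic cells and T cells through CCR7, was at 14.9, 32.6 and 31.3 CPM in transected guts, against 14.6, 25.5 and 17.4 CPM in control guts (log2 fold change 0.45, SE 0.35, adjusted p = 0.818). Both replicate 1 libraries were the low ones, and pairs 2 and 3 differed by ratios of 1.28 and 1.8 against 1.02 in pair 1. The related ccl19a.1 was at 4.57, 3.02 and 5.91 CPM in transected guts, against 4.73, 1.67 and 2.22 CPM in control guts, with overlap (log2 fold change 0.64, SE 0.45, adjusted p = 0.797), and ccr7 itself had 6, 6 and 9 counts in transected guts, against 7, 13 and 12 counts in control guts. ccl19a.2, next to ccl19a.1 in RefSeq, had 1, 6 and 3 counts in transected guts, against 0, 0 and 5 counts in control guts, a ratio of 1.91 (95% interval 0.596 to 7.14). cxcl14, an epithelial chemokine, was at 53.5, 39.1 and 36.9 CPM in transected guts, against 34.6, 44.8 and 32.8 CPM in control guts (log2 fold change 0.21, SE 0.19, adjusted p = 0.862). ccl27b, related to a mammalian skin chemokine, was at 0.384, 0.722 and 0.517 CPM in transected guts, against 0.404, 1.12 and 1.45 CPM in control guts (log2 fold change -0.87, SE 0.53, adjusted p = 0.768). Control replicate 2 of cxcl14 and control replicate 1 of ccl27b lay within the transected range. The other chemokines tested, ccl44, cxcl32b.1 and cxcl20, overlapped too, with log2 fold changes of 0.52 (SE 0.59), 0.52 (SE 0.54) and -0.093 (SE 0.20).

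The CCL20 and CCL25 systems home leukocytes to mucosa in mammals. ccl20b had 7, 15 and 15 counts in transected guts, against 7, 3 and 2 counts in control guts, a ratio of 2.95 (95% interval 1.5 to 6.21), with transected and control replicate 1 level at 7 counts, and ccl20a.3 was listed at 0. ccr6a, the receptor counterpart of CCL20, was at 1.27, 1.44 and 0.776 CPM in transected guts, against 0.768, 1.58 and 1.27 CPM in control guts (log2 fold change -0.048, SE 0.39, adjusted p = 0.989). ccl25b, the ligand of the gut-homing receptor CCR9, was at 4.99, 6.04 and 9.31 CPM in transected guts, against 11.5, 3.86 and 5.79 CPM in control guts, and its highest library was control replicate 1. The receptor gene ccr9a was at 12.6, 16.3 and 12.8 CPM in transected guts, against 9.38, 10.8 and 10.6 CPM in control guts. For ccr9a every transected library was above every control (log2 fold change 0.44, SE 0.15, adjusted p = 0.544), while ccl25b overlapped (log2 fold change -0.062, SE 0.44, adjusted p = 0.988).

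Of the 7 chemokine receptors tested, 3 had all transected libraries above all controls and 0 below, against 7.48% and 6.38% of all genes tested, the 3 being cxcr4b, ccr9a and cxcr3.2. cxcr4b, a CXCL12 receptor carried by leukocytes and migrating tissues, was at 6.8, 6.5 and 5.95 CPM in transected guts, against 4.57, 3.44 and 2.85 CPM in control guts. Its mean was 6.41 ± 0.432 CPM in transected guts and 3.62 ± 0.873 CPM in control guts (SD, n = 3 each; log2 fold change 0.82, SE 0.21, adjusted p = 0.422), and pairs 1, 2 and 3 gave ratios of 1.49, 1.89 and 2.08. cxcr3.2, which guides zebrafish macrophages, was at 3.19, 3.97 and 5.0 CPM in transected guts, against 3.11, 2.84 and 2.22 CPM in control guts. These values did not overlap, though transected replicate 1 lay only just above control replicate 1 (log2 fold change 0.57, SE 0.25, adjusted p = 0.658). Its neighbour cxcr3.3, described in zebrafish as a scavenging receptor that opposes cxcr3.2, was at 2.15, 2.25 and 3.23 CPM in transected guts, against 5.74, 2.84 and 2.72 CPM in control guts, with control replicate 1 the highest (log2 fold change -0.57, SE 0.36, adjusted p = 0.779).

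Of 18 macrophage markers in the table, 13 of them tested, 8 had all transected libraries above all controls and 0 below. Over all genes the shares were 7.48% and 6.38% of those tested, and 2.68% and 2.43% of those below the filter. The 18 markers summed to 314 to 364 CPM in transected guts and 203 to 275 CPM in control guts. Among them mpeg1.1, c1qa, c1qb and c1qc were at 0 throughout. Of the 13 tested, 10 had a positive log2 fold change, and the median of the 13 was 0.56. A single marker of the list, mpeg1.2, had 772, 549 and 896 counts in transected guts, against 139, 63 and 63 counts in control guts. Lymphoid markers, 13 genes after taking out il2rb and ccr9a, summed to 39.2 to 46.5 CPM in transected guts and 44.8 to 48.9 CPM in control guts, with cd8a at 0. The part of either list in the receptor values was not tested.

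The CXCL12 system is the main guidance system for migrating cells in the zebrafish embryo, and here single libraries stood apart in most of its genes. cxcl12a was at 8.99, 5.55 and 9.48 CPM in transected guts, against 35.5, 4.84 and 12.1 CPM in control guts. Control replicate 1 was the highest library, the other controls fell on either side of the transected range, and the difference was not called (log2 fold change -1.13, SE 0.68, adjusted p = 0.768). Without both replicate 1 libraries its log2 fold change was -0.18 (SE 0.58). The second ligand gene, cxcl12b, was at 5.38, 3.16 and 6.55 CPM in transected guts, against 14.0, 2.23 and 5.57 CPM in control guts, again highest in control replicate 1, and its log2 fold change was -0.53 with all libraries and 0.31 without the replicate 1 libraries.

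The receptors of CXCL12 had other patterns. cxcr4a was at 9.95, 1.71 and 2.03 CPM in transected guts, against 6.71, 2.79 and 1.68 CPM in control guts. Both replicate 1 libraries were high and the other 4 libraries low (log2 fold change 0.29, SE 0.82, adjusted p = 0.968). ackr3b, a receptor that removes CXCL12 from the tissue, was at 6.22, 6.27 and 4.48 CPM in transected guts, against 10.3, 4.51 and 4.12 CPM in control guts, with control replicate 1 the highest (log2 fold change -0.16, SE 0.39, adjusted p = 0.965). The skeletal muscle markers were also highest in the replicate 1 library of each group, at 6102 CPM in transected and 8454 CPM in control guts. So were the epidermal markers, at 5045 CPM in transected and 3408 CPM in control guts. The part of either list in these values was not tested. Over all 73 genes tested, the replicate 1 library was the highest of its group in both groups for 23 (31.5%) and the lowest in both for 10 (13.7%), against 27.2% and 23.9% of all genes.

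**Figure D2:**
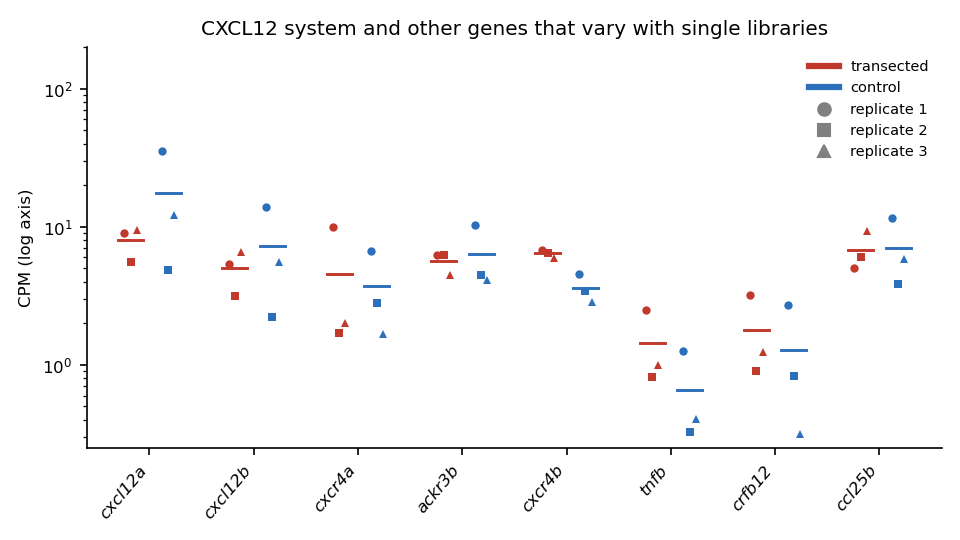
CPM per library on a log axis for the CXCL12 ligands and receptors and for tnfb, crfb12 and ccl25b, transected (red, left) and control (blue, right), with 1 symbol per replicate number and a bar at the group mean. Circles, the replicate 1 libraries, are the highest of both groups for cxcr4a, cxcr4b, tnfb and crfb12, and the highest control for the other 4 genes, while cxcr4b is the 1 gene shown whose groups do not overlap.

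Among the 17 interleukins 13 were below the filter, and the 3 that separated the groups, il6, il19l and il13, did so at low counts. All 3 were below the filter and higher in transected guts, and 0 were lower. Of all genes below the filter 2.68% and 2.43% did so. il6, the acute-phase cytokine, had 8, 4 and 2 counts in transected guts, against 0, 0 and 0 counts in control guts. It was detected in every transected and in 0 control libraries, and against a floor of 3 counts over the control group it was at least 4.47-fold higher. That floor takes the transected counts as given, and the exact 95% interval of the ratio, which includes their counting error, has a lower limit of 3.17. il19l, a cytokine gene of the IL-10 family next to il10 in RefSeq, had 11, 5 and 19 counts in transected guts, against 2, 1 and 0 counts in control guts, a ratio of 11.2 (95% interval 3.52 to 56.7). il10 itself, an anti-inflammatory cytokine, had 1, 1 and 2 counts in transected guts, against 1, 2 and 2 counts in control guts, with overlap.

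Type 2 cytokines gave a further contrast. il13 had 7, 9 and 10 counts in transected guts, against 2, 1 and 4 counts in control guts, a ratio of 3.55 (95% interval 1.5 to 9.7), with no overlap, whereas il4 was listed at 0. il13ra2, which encodes a decoy receptor for IL-13 in mammals, was at 14.9, 14.3 and 12.7 CPM in transected guts, against 22.0, 18 and 17.3 CPM in control guts. Every transected library lay below every control, and it was the 1 gene of the 73 that was lower with an unadjusted p under 0.05 (0.0136; log2 fold change -0.45, SE 0.14, adjusted p = 0.493). il4r.1, the receptor chain shared by IL-4 and IL-13, was at 7.91, 8.93 and 9.74 CPM in transected guts, against 11.0, 10.1 and 9.96 CPM in control guts, also without overlap and by a small margin (log2 fold change -0.22, SE 0.13, adjusted p = 0.761). The signalling partner il13ra1 was at 40.8, 40.1 and 34.1 CPM in transected guts, against 27.3, 38.2 and 36.0 CPM in control guts, with overlap (log2 fold change 0.18, SE 0.15, adjusted p = 0.847). In these libraries il13 was thus on the high side and il13ra2 on the low side after the cut. il13ra2 did not pass the adjusted threshold, and il13 was below the filter of the main model. In RefSeq il13 and il4 carry the synonyms il4/13a and il4/13b, so their names do not match each to a single mammalian cytokine.

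IL-17 family ligands were uneven between transected libraries. il17c, an epithelial member of the family, had 6, 1 and 21 counts in transected guts, against 2, 3 and 2 counts in control guts, a ratio of 3.83 (95% interval 1.63 to 10.4) that rested on transected replicate 3. The same library held all 7 counts of il17a/f1, while il17a/f2 was listed at 0 and il17a/f3 had 2, 4 and 3 counts in transected guts, against 3, 1 and 1 counts in control guts. The receptor gene il17ra1a was at 15.8, 18.7 and 14.2 CPM in transected guts, against 12.7, 11.4 and 11.3 CPM in control guts. Its 3 transected values were all above the controls (log2 fold change 0.46, SE 0.14, adjusted p = 0.502), with pair ratios of 1.24, 1.63 and 1.26. il17rd, known as an inhibitor of FGF signalling, was at 14.4, 9.7 and 12.5 CPM in transected guts, against 12.1, 6.79 and 8.28 CPM in control guts and overlapped (log2 fold change 0.43, SE 0.25, adjusted p = 0.761).

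IL-22 and IL-26, the cytokines in the study's title, signal in human through receptor chains that other ligands share. il20ra, whose human counterpart binds IL-26, was at 86.7, 93.7 and 77.8 CPM in transected guts, against 59.0, 76.7 and 81.3 CPM in control guts. il10rb, in human a chain of the IL-10, IL-22 and IL-26 receptors, was at 126, 106 and 125 CPM in transected guts, against 113, 138 and 103 CPM in control guts. For both genes the groups overlapped, and the log2 fold changes of 0.25 (SE 0.15) and 0.015 (SE 0.14) were small. il10ra, the ligand-binding chain of the IL-10 receptor, was at 2.23, 1.26 and 1.47 CPM in transected guts, against 1.25, 0.697 and 1.09 CPM in control guts, where transected replicate 2 lay above control replicate 1 by less than 1 count (log2 fold change 0.70, SE 0.36, adjusted p = 0.72). il22ra2, whose mammalian counterpart is a secreted protein that traps IL-22, had 2, 17 and 16 counts in transected guts, against 2, 15 and 1 counts in control guts. It was present in 2 transected libraries and control replicate 2 and nearly missing in the other 3 libraries, so it did not follow the groups (log2 fold change 0.89, SE 1.11, adjusted p = 0.91).

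The left-out genes of these systems are given for comparison. il1b, the IL-1 beta gene, had 298, 526 and 390 counts in transected guts, against 58, 33 and 36 counts in control guts. il22 had 41, 105 and 78 counts in transected guts, against 13, 25 and 31 counts in control guts, and il26, next to il22 and the ifng genes in RefSeq, had 7, 4 and 2 counts in transected guts, against 1, 1 and 0 counts in control guts. Transected libraries were above controls in all 3 genes. il1b had a log2 fold change of 3.23 (SE 0.33), with an adjusted p of 0.121 in edgeR, 2.3e-16 in DESeq2, 1.83e-14 in paired DESeq2 and 0.00799 in edgeR without both replicate 1 libraries. il22 had a log2 fold change of 1.64 (SE 0.52), and the paired DESeq2 fit called it (adjusted p = 0.0155), while the adjusted p was 0.515 in edgeR, 0.154 in DESeq2 and 0.0585 in edgeR without the replicate 1 libraries. il26 was below the filter. csf1rb and cxcr1 were not among the genes in the table.

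Most interleukin receptors overlapped between the groups. Of 21 tested, 2 had all transected libraries above all controls, il17ra1a and il10ra, and 2 below, il13ra2 and il4r.1, shares near the 7.48% and 6.38% of all genes tested, with a median log2 fold change of 0.22. il6st, the gp130 chain through which IL-6 signals, was at 26.9, 40.6 and 42.3 CPM in transected guts, against 24.7, 28.1 and 31.6 CPM in control guts (log2 fold change 0.38, SE 0.20, adjusted p = 0.724). In each pair the transected library was above its control, and transected replicate 1 lay below control replicates 2 and 3. il6r, the IL-6 binding chain, was at 15.4, 16.3 and 18.8 CPM in transected guts, against 27.1, 14.9 and 21.4 CPM in control guts, highest in control replicate 1 (log2 fold change -0.33, SE 0.22, adjusted p = 0.797). The lymphocyte receptor gene il2rb was at 1.69, 2.93 and 2.07 CPM in transected guts, against 2.14, 3.72 and 4.98 CPM in control guts, with the 2 highest values in control guts (log2 fold change -0.70, SE 0.37, adjusted p = 0.735). Its partner, the common gamma chain, was read as il2rga, with a log2 fold change of 0.22 (SE 0.26), and il2rgb, with -0.54 (SE 0.36). The IL-12 and IL-23 receptor genes il12rb2, il12rb2l and il23r had log2 fold changes of 0.55 (SE 0.44), 0.12 (SE 0.16) and 0.14 (SE 0.24). il7r and il21r.1, receptors of lymphocyte growth factors, had -0.24 (SE 0.37) and 0.44 (SE 0.24). The synaptic adhesion gene il1rapl1a, which matched the name pattern, was at 1.19, 0.406 and 0.474 CPM in transected guts, against 0.647, 0.093 and 0.407 CPM in control guts (log2 fold change 0.84, SE 0.71, adjusted p = 0.847) and overlapped between groups, as did il1rapl1b with a log2 fold change of 0.29 (SE 0.45).

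Of the remaining ligands, the T-cell and NK-cell growth factor il15 was at 4.5, 3.47 and 3.49 CPM in transected guts, against 5.7, 3.63 and 4.17 CPM in control guts (log2 fold change -0.24, SE 0.24, adjusted p = 0.88). Interleukin 12 subunits were near 0, with summed counts of 3 for il12a and 4 for il12ba in transected guts, against 1 and 3 in control guts. il21 summed to 4 counts in transected guts, against 3 in control guts, and il15l, a relative of il15, had a log2 fold change of -0.14 (SE 0.48). il1fma, an IL-1 family member of fish, was at 0.499, 2.17 and 1.64 CPM in transected guts, against 0.93, 2.0 and 0.634 CPM in control guts and overlapped (log2 fold change 0.27, SE 0.64, adjusted p = 0.965).

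**Figure D3:**
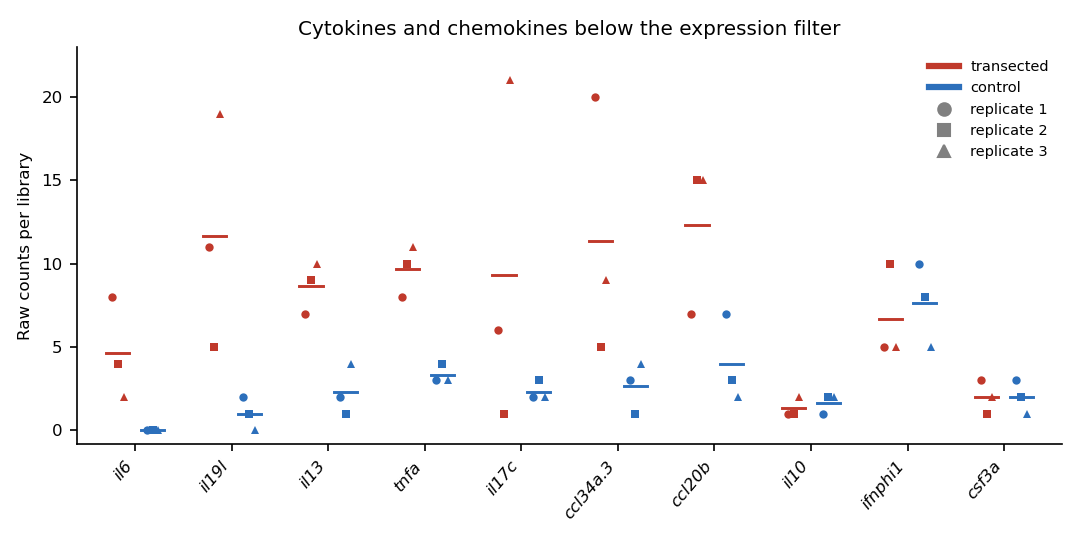
Raw counts per library for 10 cytokine and chemokine genes below the expression filter, transected (red, left) and control (blue, right), with 1 symbol per replicate number and a bar at the group mean. il6, il19l, il13, tnfa and ccl34a.3 have every transected library above every control, il17c rests on transected replicate 3 with 21 counts, and il10, ifnphi1 and csf3a overlap.

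Tumour necrosis factor is encoded by a pair of genes in zebrafish. tnfa had 8, 10 and 11 counts in transected guts, against 3, 4 and 3 counts in control guts. The groups did not overlap and the replicates of each were close, for a ratio of 2.77 (95% interval 1.31 to 6.38), but the gene stayed below the filter and has no model p-value. tnfb was at 2.5, 0.812 and 0.991 CPM in transected guts, against 1.25, 0.326 and 0.407 CPM in control guts, with the replicate 1 library the highest in each group (log2 fold change 1.1, SE 0.67, adjusted p = 0.768). Within pairs 1, 2 and 3 the ratios of tnfb were 1.99, 2.5 and 2.43. The unadjusted edgeR p was 0.0113 with the pairs as blocks against 0.148 without, but the adjusted p with the blocks was 0.269. tnfb met the filter's count in 3 transected libraries and 1 control library.

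For 5 of the genes below the filter (il6, il19l, il13, tnfa and ccl34a.3) all transected counts lay above all control counts after scaling, and for 2 below, out of 55, of which 20 were at 0. Over all genes below the filter the shares were 2.68% and 2.43%. The 2 lower ones were the CC chemokines ccl38.1, with 8, 8 and 7 counts in transected guts, against 19, 8 and 8 counts in control guts, and ccl39.3, with 2, 1 and 1 counts in transected guts, against 3, 3 and 2 counts in control guts. For both the gap was a fraction of what 1 count is worth, and the intervals of their ratios, 0.355 to 1.09 and 0.105 to 1.79, included 1. Since these genes were picked by the order of their libraries, no test of that order is given. The remaining genes below the filter overlapped and summed to at most 42 counts in transected guts (tnfrsf18, a co-stimulatory receptor) and 32 in control guts (ccr7).

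Both receptors for tumour necrosis factor passed the filter. tnfrsf1a, the death-domain receptor, was at 45.0, 62.2 and 59.8 CPM in transected guts, against 42.5, 46.6 and 45.9 CPM in control guts. Transected replicates 2 and 3 were well above the controls, while transected replicate 1 fell among them (log2 fold change 0.31, SE 0.14, adjusted p = 0.669). tnfrsf1b was at 14.1, 12.1 and 12.8 CPM in transected guts, against 11.8, 9.3 and 11.4 CPM in control guts, above all controls by a small margin (log2 fold change 0.26, SE 0.14, adjusted p = 0.732). tnfrsf19, tnfrsf21 and tnfrsfa overlapped, with log2 fold changes of 0.17 (SE 0.17), -0.19 (SE 0.31) and -0.21 (SE 0.16). tnfrsf9b, in mammals a co-stimulatory receptor of activated lymphocytes, had 58, 23 and 22 counts in transected guts, against 5, 23 and 27 counts in control guts, with control replicate 1 low and transected replicate 1 high. Its log2 fold change was 0.77 (SE 0.67) with all libraries and -0.22 without both replicate 1 libraries.

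Among the TNF ligands related to TRAIL, which trigger death receptors, tnfsf10 was at 8.84, 6.9 and 8.45 CPM in transected guts, against 11.5, 4.74 and 5.88 CPM in control guts (log2 fold change 0.12, SE 0.34, adjusted p = 0.968) and tnfsf10l4 at 2.0, 2.93 and 2.97 CPM in transected guts, against 1.86, 2.19 and 2.58 CPM in control guts (log2 fold change 0.25, SE 0.26, adjusted p = 0.883). Both overlapped. The relative tnfsf10l3 was at 0.384, 0.316 and 0.431 CPM in transected guts, against 0.566, 0.651 and 0.453 CPM in control guts, all controls being above all transected libraries (log2 fold change -0.55, SE 0.35, adjusted p = 0.773). It met the filter's count in 0 transected and 3 control libraries. tnfsf14 and the B-cell factor tnfsf13b had log2 fold changes of 0.23 (SE 0.40) and 0.066 (SE 0.45).

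Colony-stimulating factors keep macrophages and neutrophils alive and dividing. Of the 3 ligands of the CSF1 receptor, il34 was at 6.88, 5.64 and 5.21 CPM in transected guts, against 3.4, 5.44 and 3.71 CPM in control guts. Transected replicate 1 was the highest and control replicate 2 reached the transected range (log2 fold change 0.50, SE 0.24, adjusted p = 0.685). csf1a had 16, 11 and 17 counts in transected guts, against 10, 3 and 11 counts in control guts (log2 fold change 0.81, SE 0.49, adjusted p = 0.768) and csf1b had 36, 23 and 34 counts in transected guts, against 40, 31 and 37 counts in control guts (log2 fold change -0.28, SE 0.26, adjusted p = 0.862). The ligands differed in sign and none separated the groups, whereas the left-out receptor gene csf1ra, which is carried by macrophages, had 290, 237 and 290 counts in transected guts, against 146, 185 and 178 counts in control guts. csf2rb, the beta chain shared by GM-CSF-type receptors, was at 1.19, 2.35 and 2.24 CPM in transected guts, against 1.01, 1.21 and 1.13 CPM in control guts (log2 fold change 0.78, SE 0.33, adjusted p = 0.649). The 2 highest libraries were transected replicates 2 and 3, with transected replicate 1 among the controls. The neutrophil growth factor genes csf3a and csf3b summed to 6 and 49 counts over the transected libraries, against 6 and 47 over the controls. The left-out receptor csf3r had 91, 147 and 151 counts in transected guts, against 83, 59 and 46 counts in control guts. csf1ra and csf3r did not overlap between groups, with adjusted p-values of 0.473 and 0.506 in edgeR, and csf3r was at 0.039 without both replicate 1 libraries.

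Interferons were near the detection limit in both groups. ifng1 had 2 counts, both in transected replicate 1, and its relative ifng1r summed to 3 over transected libraries, against 1 over controls. ifnphi1, a type I interferon gene, had 5, 10 and 5 counts in transected guts, against 10, 8 and 5 counts in control guts, a ratio of 0.832 (95% interval 0.433 to 1.58). The interferon gamma receptor genes had small differences, with ifngr1 at 49.5, 56.6 and 46.7 CPM in transected guts, against 48.9, 48.1 and 49.3 CPM in control guts and ifngr2 at 31.7, 36.1 and 32.2 CPM in transected guts, against 34.5, 29.4 and 30.6 CPM in control guts. Their log2 fold changes were 0.062 (SE 0.10) and 0.082 (SE 0.11). crfb4, crfb15, crfb16 and crfb12 also overlapped, with log2 fold changes of -0.12 to 0.77, and crfb12 was highest in the replicate 1 library of each group.

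**Figure D4:**
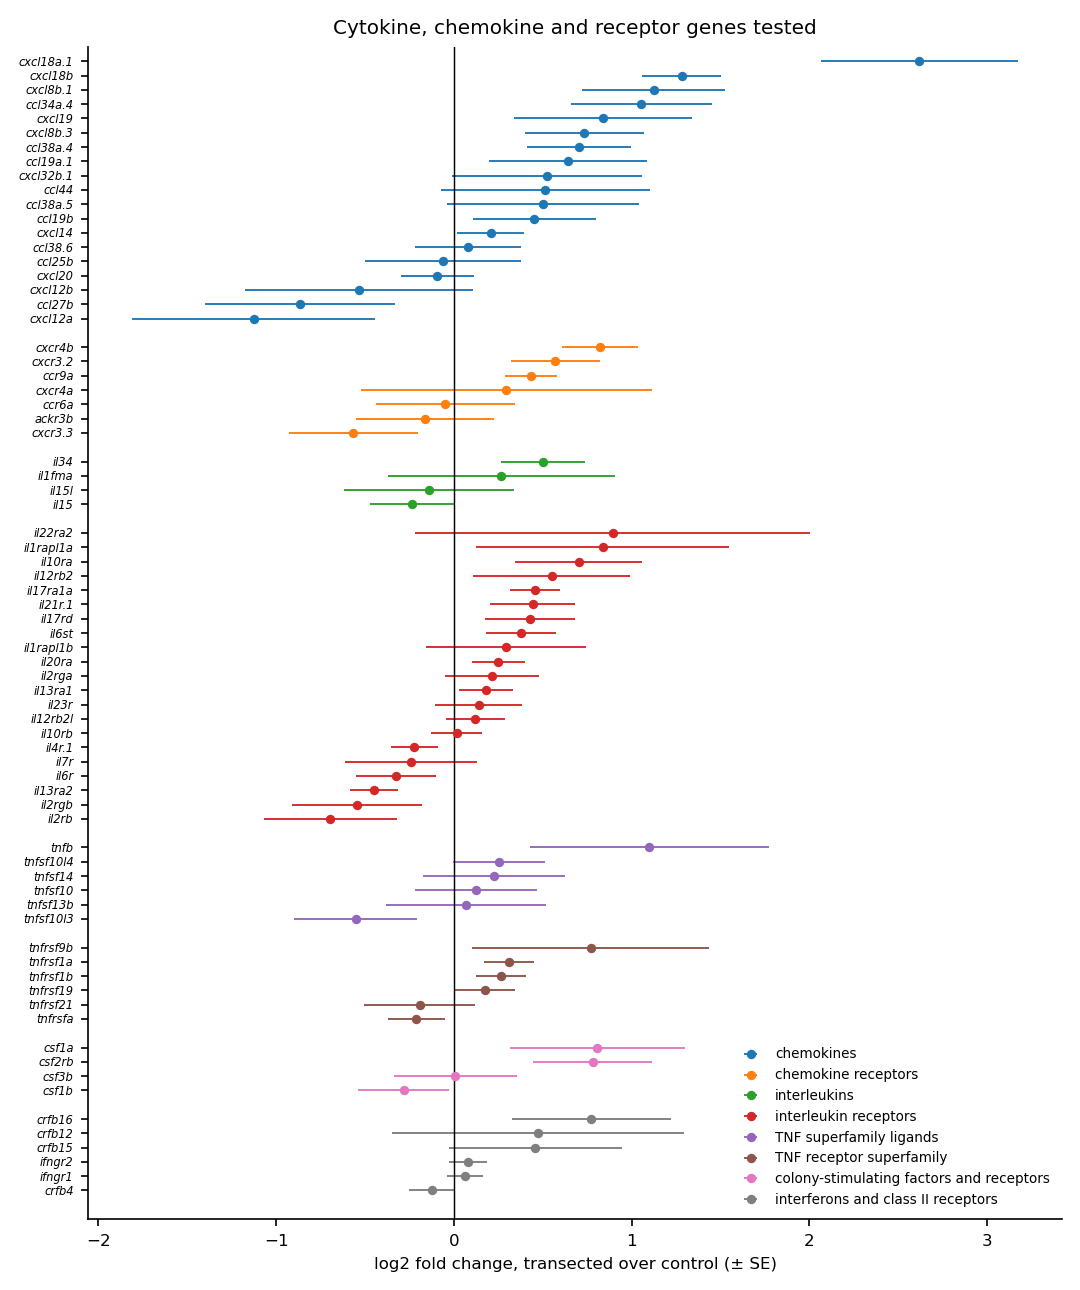
Log2 fold change of transected over control guts with its SE for the 73 cytokine, chemokine and receptor genes tested, grouped and coloured by role and ordered by value within each role. Chemokines span the widest range, with cxcl18a.1 at 2.62 and cxcl12a at -1.13, and the interferon gamma receptor genes lie close to 0.

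Genes that carry these signals inside the cell were read from a separate list, chosen with earlier results of these data known. The table held 44 of its genes, and of 39 that were tested 27 had a positive log2 fold change, and the median was 0.15. None passed in edgeR after adjustment, while 6 were higher and 2 lower before it, against 4.32% and 3.55% of all genes. DESeq2 called 3 higher and 0 lower, against 0.846% and 0.584%, all 3 of them feedback inhibitors of cytokine signalling. Paired DESeq2 called 5 higher (1.43% of all genes), and so did edgeR without both replicate 1 libraries (0.866%), in each case the same 3 genes with stat3 and stat4. socs3a, which blocks JAK-STAT signalling, was at 122, 202 and 154 CPM in transected guts, against 54, 46.1 and 38.9 CPM in control guts (log2 fold change 1.78, SE 0.22, adjusted p = 0.122; DESeq2 adjusted p = 4.04e-10). nfkbiaa and nfkbiab encode IkB-alpha proteins that hold NF-kB in the cytoplasm, and their log2 fold changes were 0.99 (SE 0.18) and 0.72 (SE 0.12). For socs3a, nfkbiaa and nfkbiab every transected library was above every control. All transected libraries lay above all controls for 11 of the 39 tested and below for 4, against 7.48% and 6.38% of all genes tested. Since the list was chosen with earlier results known, its counts beside the shares of all genes are a description and not a test. stat3, which carries IL-6 and IL-22 signals, was at 66.4, 142 and 140.5 CPM in transected guts, against 49.98, 75.3 and 85.3 CPM in control guts. It was higher in transected guts within each pair but overlapped between groups (log2 fold change 0.73, SE 0.34, adjusted p = 0.683), with an adjusted p of 0.548 in DESeq2, 0.00713 in paired DESeq2 and 0.0206 in edgeR without the replicate 1 libraries. stat4, which acts downstream of IL-12 receptors, was at 48.0, 63.2 and 72.2 CPM in transected guts, against 35.5, 44.6 and 46.7 CPM in control guts, without overlap (log2 fold change 0.53, SE 0.18, adjusted p = 0.544). Its adjusted p was 0.366 in DESeq2, 0.0341 in paired DESeq2 and 0.0491 in edgeR without the replicate 1 libraries. socs6b, of the SOCS family, was at 6.45, 7.08 and 7.33 CPM in transected guts, against 12.9, 9.76 and 9.51 CPM in control guts and lower in all transected libraries (log2 fold change -0.63, SE 0.16, adjusted p = 0.422). The kinase gene jak1 and the NF-kB subunit gene rela had log2 fold changes of 0.32 (SE 0.10) and 0.084 (SE 0.13).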

How the data were processed

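Raw counts per gene symbol were deposited by the authors, 1 column per library, without normalization. Per the labels' protocols, stranded mRNA libraries were read as 100-bp paired ends, checked with FastQC 0.11.8 and aligned to danRer11. The aligner is not given in the sources used, nor are the counter and the annotation. Low genes were removed by filterByExpr (count of 10, total of 15) and the rest scaled by TMM and fitted with the robust quasi-likelihood test of edgeR 4.0.16 in R 4.3.3, with group as the only term and Benjamini-Hochberg adjustment over 11466 genes. A threshold of 0.05 was used. The SE is the log2 fold change over the root of the F statistic. DESeq2 1.42.0 ran on the same filtered genes. Its unpaired fit gave no adjusted p for csf1a, cxcl32b.1, il1rapl1a, il1rapl1b, il22ra2 and tnfsf10l3, so it could not call them. Genes without an adjusted p count as not called, also in the shares over all genes. The code was tested on simulated data.

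Group and library were matched by title and library name. Deviations from the group mean correlated at 0.450, 0.512 and 0.177 between libraries with the same replicate number (across 11466 genes, which are not independent). Between libraries with different numbers the values were -0.527 to 0.118, so pair 3 stood little apart. A further number in the sample titles matched within pairs 2 and 3 but not within pair 1. The numbers were treated as pairs in a blocked alternative, a pairing that leans on these same data. No libraries of a group were copies of each other (mean chi-square per gene 27.6 to 254.5). p-values measure the spread between these pools. Ratios of summed counts carry exact 95% intervals for counting error only.

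The members and lists were chosen with earlier results of these data known. Genes named are the 12 with the smallest unadjusted p in each direction, the 2 with most CPM per role, and a fixed set of 54 symbols, of which the table held 45. The fixed symbols it did not hold were il11a, il11b, il12bb, cxcl8a, cxcl11.1, ccl25a, cxcr2, ackr4b and ccr9b. Also named were genes below the filter found in every library of 1 group and at most 1 of the other. Others, among them il19l, il17c, ccl34a.3, il22ra2, tnfrsf9b and the signalling genes, were picked after their values were seen. Neighbouring genes come from RefSeq GRCz12tu, another assembly, without coordinates. Symbols were found there for all members but il10rb. No sequences are shown.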

Additional observations from a re-analysis of the deposited data

How the results depend on the processing

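Over all genes edgeR called 2 higher and 0 lower, DESeq2 97 and 67, edgeR with the replicate block 3 and 1, DESeq2 with the replicate block 164 and 124, and edgeR without both replicate 1 libraries 99 and 172. Leaving out 1 library gave 0 to 4 higher and 0 to 1 lower, with 0 higher without transected replicate 1 or 3 or control replicate 2 or 3, 1 without transected replicate 2, and 4 with 1 lower without control replicate 1. Of the cytokine, chemokine and receptor genes DESeq2 called 2 higher, with and without the replicate block, and edgeR called 0 under each of its alternatives. Their median log2 fold change was 0.18 to 0.31 with 1 library left out (0.18 without transected replicate 1). In these fits 75 to 78 of the genes were tested, and 49 to 59 were positive. Genes without overlap numbered 12 higher and 3 lower with all libraries and the filter. With no filter they numbered 17 higher and 5 lower, of 108 genes. With 1 library left out they numbered 16 to 29 and 4 to 7, reaching 20 and 5 without transected replicate 1, 7 lower without transected replicate 3, 29 and 6 without control replicate 1, and 20 and 7 without control replicate 2. Without both replicate 1 libraries they numbered 34 and 9, of 74 tested. Fewer libraries overlap less by construction. Shares over all genes are given here for the full set of libraries only, so the counts from fewer libraries cannot be set against a background. Of 607 alternative values for named genes 603 stayed on the same side of the threshold and 4 crossed it, those of cxcl18b and cxcl18a.1 in DESeq2. In 25 values of 9 genes the sign changed without a call in either fit (ackr3b, ccl25b, csf3b, cxcl12b, cxcl14, cxcr4a, ifngr1, il10rb and tnfsf10). Among the 73 genes the replicate block changed no call in edgeR or DESeq2. Outside them, the block in DESeq2 brought il22, stat3 and stat4 past the threshold. Scaling moved the median of all genes from 0.0026 to between -0.0067 and 0.013. Of 17 interleukins 13 were below the filter and have no p-value in the main model. The edgeR fit with no filter did include genes with at least 1 count, and it called 0 of 108 members.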
